A study of Mus musculus with 136 samples.

Results

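Bcl3 knockout macrophages were compared with wild-type macrophages after 0.5, 1, 2 and 6 h of lipid A, in libraries of chromatin-associated RNA. The 16 libraries were taken by genotype, time and replicate number from the samples of the series (16 of 136), with 2 libraries (R1 and R2) of each genotype at each time. Bone marrow-derived macrophages were grown for 6 days in 8% M-CSF from bone marrow of wild-type mice (strain written C57/B16 in the labels) or of Bcl3-/- mice, and were treated with lipid A, the TLR4-binding part of bacterial lipopolysaccharide. The groups therefore share the cell type, the M-CSF culture and the stimulus, and differ in the labelled genotype. The 4 unstimulated (0 h) libraries of the same genotypes, 2 of each, were set beside them. Libraries of the Nfkbiz (20), Nfkb1 (30) and Nfkbid (30) series, each with a knockout and its own wild type, served for comparison. The Nfkb1 and Nfkbiz wild types also gave the list of lipid A-induced genes. Whether R1 and R2 came from separate mice is not given in the sources used here, so p-values measure the spread between these libraries, which may be technical, and whether the mice were littermates is not given either.

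Bcl3 is an atypical member of the IkB family. It resides in the nucleus, has no DNA-binding domain of its own, and binds homodimers of the NF-kB subunits p50 and p52 on DNA through its ankyrin repeats. It has been described both as a coactivator and as a repressor at NF-kB sites, and in macrophages it is known as an NF-kB-induced gene and a brake on some inflammatory genes. Chromatin-associated RNA is enriched in transcripts still attached to their template, so its level follows ongoing transcription more closely than total RNA does.

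All levels are RPKM (reads per kilobase of the gene's whole span and per M reads), and all differences are log2(RPKM + 0.5) of Bcl3-/- minus wild type, a scale that understates the change of genes at low levels. The test took the 4740 genes (of 15196) that reached 1 RPKM in at least 2 of the 20 libraries, and used limma with Benjamini-Hochberg adjustment over all of them. A gene was called at an adjusted p below 0.05 and a 2-fold difference. As estimated from the value of 1 read, the stimulated libraries held 17.6 to 41.1 M reads (M, 10 to the power 6), and Bcl3-/- R1 held the fewest (17.6 to 27.1 M against 27.5 to 41.1 M for the other sets). In Bcl3-/- R1 at 0.5 and 2 h the 5 highest genes took 48.9% and 48.5% of the summed RPKM, against 20.8% to 35.5% in the other 14 stimulated libraries. Of the macrophage markers, 7 were in the table and all 7 passed the filter, while the 32 listed markers of neutrophils and precursors, dendritic cells, lymphocytes, mast cells and basophils, erythroid cells and stromal cells stayed at or under 0.332 RPKM in all 20 libraries.

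The targeted gene came first. Bcl3 RNA was present in the libraries labelled Bcl3-/- and was higher there than in wild type at every time. At 6 h Bcl3 stood at 29.5 RPKM in R1 and 40.9 RPKM in R2 of Bcl3-/-, and at 8.60 and 9.55 RPKM in wild type. The groups did not overlap, and the knockout-to-wild-type ratio was 3.43 in R1 and 4.28 in R2. The mean was 35.2 ± 8.04 RPKM in Bcl3-/- and 9.07 ± 0.67 RPKM in wild type (SD, n = 2 each), and the log2 difference was 1.88 ± 0.33 (SE). Its adjusted p in limma was 0.0751 without a term for the replicate number, 0.00934 with that term, and 0.0235 with the term set separately at each time. With the 4 libraries of 6 h fitted alone, the adjusted p was 1.00 for Bcl3, Ptx3 and Hcar2. The deposited value averages over the whole gene span, chr7:20393810-20408104 in mm9, and the deleted exons are not given in the sources used here, so it does not tell whether the RNA is the intact transcript. Throughout, Bcl3-/- therefore names the libraries by their label.

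The change of the Bcl3 difference from 0.5 to 6 h was 1.10 ± 0.46 (SE) and was not called (adjusted p in limma 1.00). In wild type the level of Bcl3 went from 2.66 and 2.20 RPKM at 0 h to 6.08 and 5.84 at 0.5 h, 16.4 and 18.1 at 1 h, 9.85 and 11.4 at 2 h. In Bcl3-/- it stood at 8.89 and 8.79 RPKM at 0 h, 9.89 and 11.4 at 0.5 h, 20.2 and 20.6 at 1 h, 14.8 and 28.6 at 2 h. The wild-type libraries peaked at 1 h and came down, whereas the Bcl3-/- libraries were highest at 6 h. The groups were closest at 1 h, where the ratios were 1.23 and 1.14, and furthest apart before stimulation and at 6 h. At 0 h the ratios were 3.34 and 3.98 and the log2 difference was 1.68 ± 0.33 (adjusted p in limma 0.357, and 0.0444 with the replicate term). Averaged over the 4 stimulated times the difference was 0.96 ± 0.16 (adjusted p in limma 0.0616, and 0.00804 with the replicate term).

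**Figure D1:**
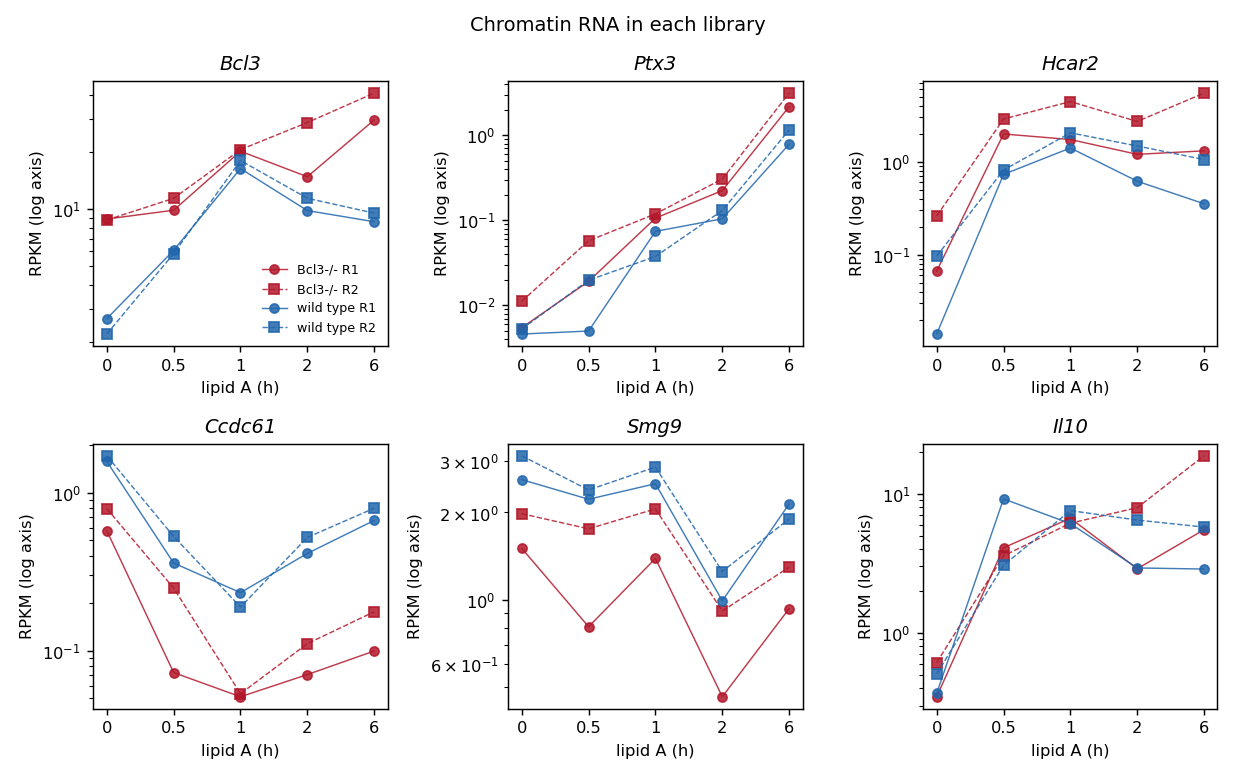
Level of Bcl3, Ptx3, Hcar2, Ccdc61, Smg9 and Il10 (RPKM, log axis) against hours of lipid A in each library, in red for Bcl3-/- and blue for wild type, with circles and solid lines for R1 and squares and dashed lines for R2. Bcl3 lies above wild type and Ccdc61 and Smg9 lie below it at all 5 times in both replicates. Hcar2 lies above the wild type of the same replicate number at all 5 times. Ptx3 separates most clearly at 6 h, while Il10 overlaps at 6 h (5.51 RPKM in Bcl3-/- R1, 5.76 RPKM in wild-type R2).

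The promoters of Bcl3 and of Ptx3, both higher in the Bcl3-/- libraries at 6 h, each hold a match to the NF-kB consensus close to the start site, and these stretches are shown because NF-kB dimers are the partners through which Bcl3 reaches DNA. They come from RefSeq promoter windows on GRCm38.p6, from 250 bases before to 50 bases after the start, and are printed 5′ to 3′ on the gene's strand with the match in capitals. The Bcl3 stretch is chr7:19822734-19822763 on the minus strand and the Ptx3 stretch is chr3:66219877-66219906 on the plus strand.
Bcl3: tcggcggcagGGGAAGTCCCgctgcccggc
Ptx3: ccaaatccagGGGAACTCCCtcgcgctgtg
The consensus was searched on both strands, and both stretches match on each. The Ptx3 match overlaps a second that starts 1 base earlier. Of the 32851 windows of 300 bases in the table, 8.46% hold a match, and the table has no window for Hcar2. A match is a description of the letters, and binding was not measured here.

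Without a replicate term, limma called 0 genes lower and 0 genes higher (0% of 4740 in each direction) at each of 0.5, 1, 2 and 6 h. Before adjustment, 9 genes were lower and 16 higher at p below 0.05 and 2-fold at 0.5 h, 0 and 2 at 1 h, 7 and 6 at 2 h, and 4 and 8 at 6 h. The smallest adjusted p was 0.0751, at 6 h, shared by Bcl3 and Ptx3. With the replicate term, 2 genes were called higher at 6 h (0.0422% of those tested), Bcl3 and Ptx3. With the term at each time, 3 were called higher (0.0633%), the third being Hcar2. No gene was called lower at 6 h, or in either direction at 0.5, 1 and 2 h, with either form of the term, and the change of the genotype difference from 0.5 to 6 h gave 0 calls in each direction in all 3 fits (10 lower and 14 higher at an unadjusted p below 0.05 and 2-fold without the term). On simulated data of the same layout the 6 h test without the term recovered 73% of changes of 1.5 on the log2 scale and 98% of changes of 3. It made 6 false calls. The simulation changed 100 genes of each size and drew independent noise for each gene and library. It held no shift shared by the genes of a library or replicate, so these shares do not give the power on the real libraries.

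Ptx3, a secreted pattern-recognition protein of the pentraxin family that macrophages make on stimulation, was the other gene called at 6 h. It reached 2.17 and 3.14 RPKM in Bcl3-/- R1 and R2 and 0.786 and 1.16 RPKM in wild type. The groups did not overlap and the ratios in the replicates were close, at 2.76 and 2.71. The means were 2.66 ± 0.68 and 0.97 ± 0.26 RPKM (SD, n = 2 each), and the log2 difference was 1.10 ± 0.18 (SE), with adjusted p in limma of 0.0751 without the replicate term, 0.00528 with it and 0.000812 when the term was set at each time. When each library was centred on its median gene, the adjusted p of Ptx3 in limma was 0.343 without the replicate term. With the term it was 0.105, so the call of that fit was lost. Ptx3 passed the 1 RPKM filter through the Bcl3-/- libraries of 6 h, where it was high. Of the other libraries only wild-type R2 at 6 h exceeded 1 RPKM. With no filter its adjusted p in limma at 6 h was 0.0438 without the replicate term.

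Before 6 h Ptx3 was near the lower limit of the libraries. At 0.5 h its span held 2 and 14 reads in Bcl3-/- and 1 and 4 in wild type, at 1 h 17 and 23 against 14 and 7, and at 2 h 25 and 62 against 17 and 24. The levels at 2 h were 0.224 and 0.306 RPKM in Bcl3-/- and 0.104 and 0.131 RPKM in wild type. The Bcl3-/- value was above wild type in each replicate pair at these times, but at 0.5 h the groups overlapped and the sign rests on a few reads. Ptx3 (chr3:66023808-66029728, mm9) lies within the span of Veph1, and at 6 h the whole Veph1 span held 363 and 656 reads in Bcl3-/- and 160 and 234 in wild type, against 344, 632, 156 and 217 in the Ptx3 span alone. Nearly all reads of the longer span thus fell within Ptx3.

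Hcar2, the Gi-coupled receptor for nicotinic acid and beta-hydroxybutyrate, had the largest mean of the 8 within-replicate differences among the genes higher in all of them. Without Bcl3-/- R2 its mean difference was 0.46, below that of Bcl3 at 0.76. In Bcl3-/- R1 it stood at 1.98, 1.73, 1.20 and 1.31 RPKM at 0.5, 1, 2 and 6 h, and in R2 at 2.87, 4.43, 2.70 and 5.46 RPKM. In wild-type R1 it stood at 0.729, 1.40, 0.616 and 0.352 RPKM, and in R2 at 0.812, 2.04, 1.47 and 1.05 RPKM. Within each replicate number Bcl3-/- was above wild type at all 4 times, and the groups did not overlap at 0.5 and 6 h, while at 1 and 2 h Bcl3-/- R1 lay below wild-type R2. Averaged over the 4 times the log2 difference was 0.99 ± 0.26 (SE), with an adjusted p in limma of 1.00 without the replicate term, 0.00804 with it and 0.00437 when set at each time. At 6 h the ratios were 3.71 and 5.18, from 68 and 361 reads in Bcl3-/- and 23 and 65 in wild type, and the difference was 1.51 ± 0.51 (adjusted p in limma 1.00, 0.125 with the term and 0.0431 with 1 term per time). In unstimulated cells Hcar2 was low in both genotypes, at 0.0664 and 0.261 RPKM in Bcl3-/- and 0.0140 and 0.0964 RPKM in wild type.

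Denr, which lies 43.7 kb from Hcar2 and encodes a factor for translation reinitiation, was among the 6 leading genes at 6 h too. It stood at 3.86 and 4.18 RPKM in Bcl3-/- and 1.71 and 1.74 RPKM in wild type at 6 h, with no overlap. The difference was 1.02 ± 0.29 and was not called (adjusted p in limma 1.00). At 0.5 and 2 h the R1 and R2 differences of Denr had opposite signs, while at 0 and 1 h the groups did not overlap (1.36 and 1.51 RPKM in Bcl3-/- against 1.09 and 1.18 RPKM in wild type at 0 h).

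Averaged over the 4 stimulated times and without a fold limit, limma without the replicate term called 1 gene lower (0.0211% of those tested) and 0 higher (0%). With the term it called 2 lower (0.0422%) and 4 higher (0.0844%), and with 1 such term per time 1 lower (0.0211%) and 3 higher (0.0633%). The gene called in all 3 fits was Ccdc61, which encodes a centrosome-associated coiled-coil protein. The 4 higher genes with the term were Bcl3, Hcar2, Ptx3 and Snora43, and the other lower gene was Smg9, a regulator of the SMG1 kinase in nonsense-mediated mRNA decay. No gene reached 2-fold and the threshold over the 4-time mean in any of the 3 fits (0%). The SE and p-values of the 4-time mean treat the 4 times as separate libraries. Whether the times of each genotype and replicate number share a culture is not given, and if so these values may be too small. The fit on values averaged per replicate was counted only at 2-fold, so the calls without a fold limit were not tested there.

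Ccdc61 lay below wild type in every library pair. In Bcl3-/- it stood at 0.0727 and 0.249 RPKM at 0.5 h, 0.0511 and 0.0534 at 1 h, 0.0706 and 0.111 at 2 h, and 0.0996 and 0.176 at 6 h. In wild type it stood at 0.359 and 0.529 RPKM at 0.5 h, 0.233 and 0.189 at 1 h, 0.413 and 0.522 at 2 h, and 0.668 and 0.798 at 6 h. The groups did not overlap at any time, and wild type exceeded Bcl3-/- by 6.70 and 4.52 times at 6 h. The mean difference on the log2(RPKM + 0.5) scale was -0.64 ± 0.09 (SE), with an adjusted p in limma of 0.0225, 0.000613 with the replicate term and 0.00108 when set at each time.

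The Ccdc61 values rest on 25 to 200 reads per Bcl3-/- library at 0.5 to 2 h and 116 to 353 per wild-type library. Ccdc61 passed the 1 RPKM filter only through the wild-type libraries at 0 h, at 1.58 and 1.71 RPKM against 0.575 and 0.794 RPKM in Bcl3-/-. With no filter its adjusted p for the 4-time mean was 0.0334. Centring the libraries gave -0.57 with an adjusted p of 0.0591, and 0.0117 with the replicate term as well.

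Smg9 was lower in both replicates at all times. In Bcl3-/- R1 it stood at 0.807, 1.39, 0.463 and 0.932 RPKM at 0.5, 1, 2 and 6 h, and in R2 at 1.76, 2.06, 0.914 and 1.30 RPKM. In wild-type R1 it stood at 2.22, 2.51, 0.992 and 2.14 RPKM, and in R2 at 2.39, 2.87, 1.25 and 1.90 RPKM. No Bcl3-/- library reached the lower wild-type library of its time, and the gap was wider in R1 than in R2. The mean difference was -0.59 ± 0.15 (SE), with adjusted p in limma of 1.00 without the replicate term, 0.0434 with it and 0.178 when set at each time, while centring the libraries gave -0.53 with an adjusted p of 0.00118. Snora43, a small nucleolar RNA of 140 bases within Snhg7, had a mean difference of 0.87 ± 0.25 (adjusted p 1.00, and 0.0469 with the term), and RPKM of so short a span rests on few reads.

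Bcl3, Ccdc61 and Smg9 stood apart between the genotypes before lipid A was added. At 0 h, a comparison chosen after values had been seen, limma called 0 genes in each direction without the replicate term (0%; 1 lower and 4 higher at an unadjusted p below 0.05 and 2-fold). With the term it called 1 higher (0.0211%), Bcl3, and, without a fold limit, 1 lower (0.0211%), Ccdc61, whose 0 h difference was -0.86 ± 0.19 (adjusted p 0.471 without the term and 0.0444 with it). Smg9 at 0 h was 1.50 and 1.98 RPKM in Bcl3-/- and 2.60 and 3.14 RPKM in wild type, again with no overlap.

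The replicates of the knockout stood on opposite sides of their wild-type partners for most genes. In R1 the median within-replicate difference over the 4740 genes was -0.40, -0.16, -0.37 and -0.11 at 0.5, 1, 2 and 6 h, and 11.1%, 12.8%, 9.83% and 23.5% of genes were above 0. In R2 the medians were 0.13, 0.23, 0.05 and 0.07, and 73.5%, 78.8%, 68.5% and 73.3% of genes were above 0. Across genes, which are not independent replicates, the R1 and R2 differences had Pearson correlations of 0.11, -0.25, -0.04 and 0.05 at the 4 times. Bcl3-/- R1 was also the set with the fewest reads, and whether depth or the share taken by the highest genes sets these shifts was not tested. At 0 h the medians were closer to 0, at -0.07 in R1 and 0.07 in R2.

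Genes that moved the same way in both replicates were therefore a minority at every time. At 0.5 h 368 genes (7.76%) were higher and 1098 (23.2%) lower in both, at 1 h 346 (7.30%) and 743 (15.7%), at 2 h 244 (5.15%) and 1272 (26.8%), and at 6 h 804 (17.0%) and 958 (20.2%). The remaining 3274, 3651, 3224 and 2978 genes had opposite signs. Genes 2-fold higher in both numbered 8 (0.169%), 1 (0.0211%), 3 (0.0633%) and 4 (0.0844%), and genes 2-fold lower in both numbered 2 (0.0422%), 0 (0%), 2 (0.0422%) and 2 (0.0422%). The share with a common sign was largest at 6 h, the time at which R1 stood closest to wild type.

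**Figure D2:**
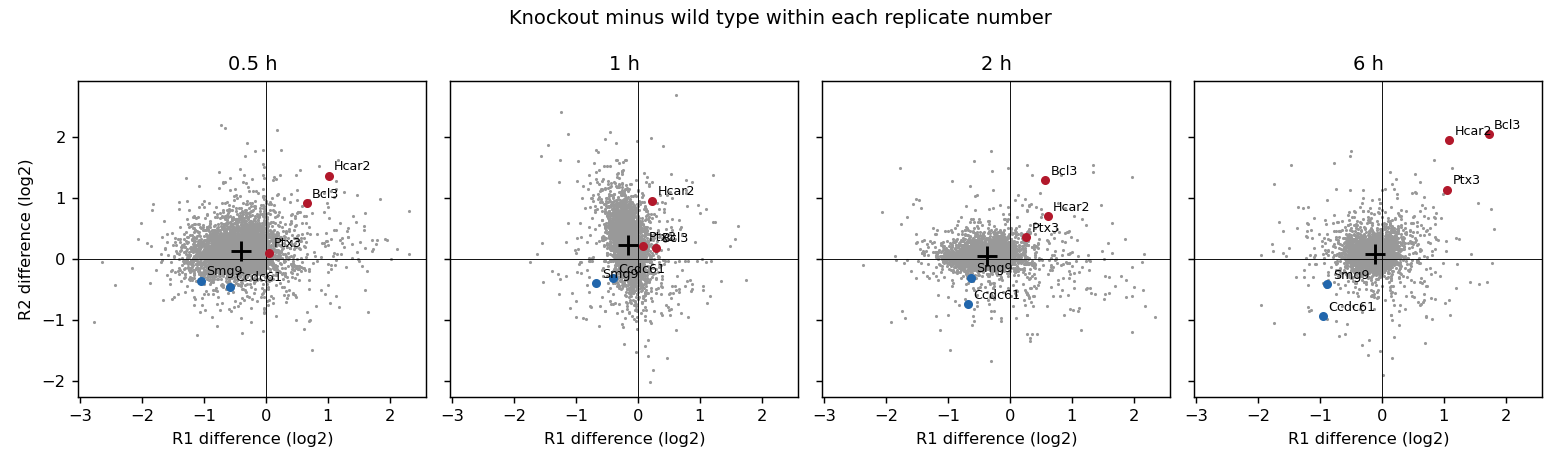
Within-replicate differences, log2(RPKM + 0.5) of Bcl3-/- minus wild type, in R1 (horizontal axis) and R2 (vertical axis) for the 4740 tested genes at 0.5, 1, 2 and 6 h, 1 point per gene, with a plus at the medians. The cloud sits left of 0 in R1 and above 0 in R2 at each time (medians -0.40 and 0.13 at 0.5 h, -0.11 and 0.07 at 6 h), and Bcl3, Ptx3 and Hcar2 stand in the upper right at 6 h.

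Over the whole course, 14 genes (0.295%) were higher in Bcl3-/- in all 8 within-replicate differences and 95 (2.00%) were lower. The 14 were Hcar2, Bcl3, Ptx3, Snora43, Snord43, Mir147, Scarna6, Kif22, Ptgir, Nes, H2-Q8, Cdk2ap2, Icam5 and Smpd2. Of these, 4 span fewer than 500 bases, against 372 of the 4740 tested. Kif22, a chromokinesin of the mitotic spindle, was higher by 0.90, 0.72, 0.45 and 0.36 in R1 and 0.26, 0.39, 0.18 and 0.20 in R2 at 0.5, 1, 2 and 6 h. Ptgir, the prostacyclin receptor, was higher by 0.64, 0.32, 0.25 and 0.03 in R1 and 0.58, 0.45, 0.26 and 0.27 in R2. Nes, which encodes the intermediate filament protein nestin, was higher by 0.04 to 0.24 in R1 and 0.17 to 1.00 in R2. None of these 3 was called in any fit, and in Nes the larger differences were those of R2.

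The 95 lower genes included, besides Ccdc61 and Smg9, Cd5l, Siglec1 and Cers6, none of which was called in any fit. Cd5l, a secreted scavenger receptor family protein that keeps macrophages alive, was lower by -0.79, -0.21, -0.20 and -0.34 in R1 and by -1.10, -0.96, -0.21 and -0.04 in R2 at 0.5, 1, 2 and 6 h. Siglec1, the sialic acid-binding adhesion receptor CD169, was lower by -0.86, -0.27, -1.02 and -0.74 in R1 and by -0.51, -0.30, -0.11 and -0.09 in R2. Cers6, a ceramide synthase, was lower by -1.17, -0.18, -0.92 and -0.68 in R1 and by -0.31, -0.82, -0.21 and -0.17 in R2. For Siglec1 the larger part of the difference came from R1, the replicate in which nearly all genes were low, whereas Cd5l at 0.5 and 1 h was further down in R2, where most genes were high.

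Centring each library on its median moved this count. Relative to the median, 87 genes (1.84%) were higher and 92 (1.94%) lower in all 8 differences, in place of 14 and 95. Only 8 of the higher and 22 of the lower genes kept the sign in all 8 differences in both scalings.

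Some of the lower genes of the course lay close to Bcl3 on chromosome 7, although most did not. Of the tested genes of at least 500 bases, 94 of 4368 (2.15%) were lower in all 8 differences. With Bcl3 itself left out, they were 4 of 27 within 5 Mb of Bcl3 and 1 of 82 at 5 to 20 Mb. Further along chromosome 7 they were 6 of 233, and on other chromosomes 83 of 4025. Ccdc61 (chr7:19476232-19495753) is 0.898 Mb away and Smg9 (chr7:25184646-25207796) 4.78 Mb. Mark4, a microtubule-affinity kinase 0.350 Mb from Bcl3, was lower in all 8 differences, from -0.46 to -0.25 in R1 and from -0.74 to -0.27 in R2, and its groups did not overlap at any of the 5 times (mean difference -0.40, adjusted p in limma 0.221 with the replicate term). Napa, the SNARE-disassembly adaptor alpha-SNAP, was also lower in all 8 differences, by -1.20, -0.83, -0.59 and -0.28 in R1 and by -0.31, -0.19, -0.37 and -0.02 in R2. Of the other genes of at least 500 bases within 5 Mb of Bcl3, 6 of 27 (22.2%) had a mean difference of at least 0.3 in size relative to the library median. They were Ccdc61, Smg9, Napa, Mark4 and Plaur, all lower, and Ptgir, higher. Plaur encodes the urokinase receptor.

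Beyond 5 Mb this held for 2 of 82 genes (2.44%) at 5 to 20 Mb, for 7 of 233 further along chromosome 7 and for 100 of 4025 (2.48%) on the other chromosomes. Each replicate gave the same order, with 25.9% against 8.92% on other chromosomes in R1 and 22.2% against 7.63% in R2. The same 27 genes in the other knockouts of the series, each against its own wild type, gave 14.8% for Nfkbiz (19.5% on other chromosomes), 7.41% for Nfkb1 (9.37%) and 0% for Nfkbid (4.52%). Ccdc61 had 4-time mean differences of -0.22, -0.10 and -0.12 in the Nfkbiz, Nfkb1 and Nfkbid knockouts, and Smg9 -0.05, -0.21 and -0.07, against -0.64 and -0.59 in Bcl3-/-. The 5 Mb band and the limit of 0.3 were chosen after values had been seen, the shares carry no test, and the strain background of the mice around Bcl3 is not given in the sources used here.

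**Figure D3:**
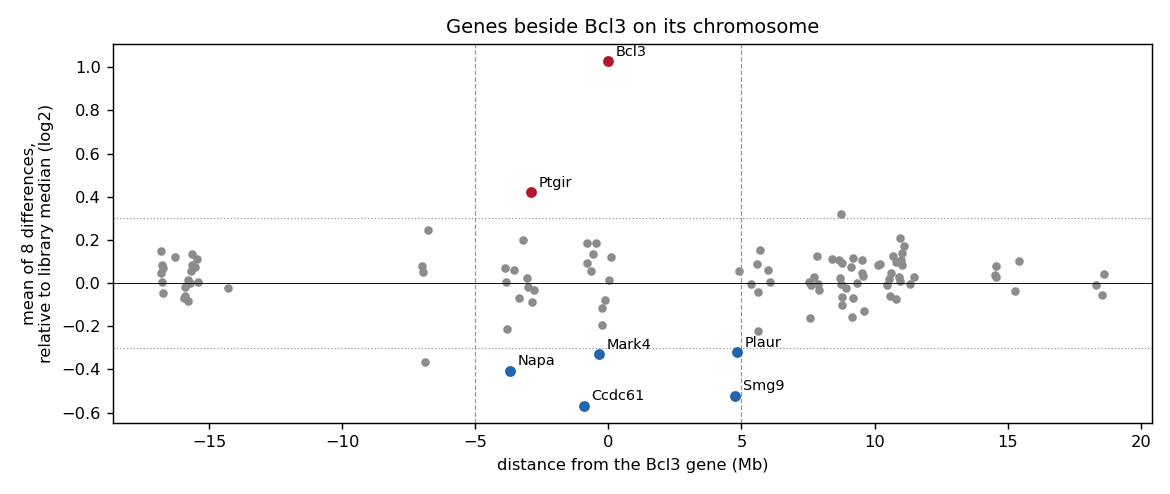
Mean of the 8 within-replicate differences (log2(RPKM + 0.5), relative to the library median) for tested genes of at least 500 bases within 20 Mb of Bcl3 on chromosome 7, against distance from Bcl3 in Mb, 1 point per gene, with dashed lines at 5 Mb and dotted lines at 0.3 on either side. Bcl3 itself is plotted too, at 1.03, and is left out of the counts. Within 5 Mb 6 of 27 genes lie outside the dotted lines, against 2 of 82 at 5 to 20 Mb.

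The genes leading each time by the smaller of their replicate differences were mostly very short. Of the 47 genes taken as the 6 highest and 6 lowest of each time, 37 span fewer than 500 bases, chiefly small nucleolar RNAs and microRNA hairpins such as Mir704 at 0.5 h (1.16 in R1 and 1.62 in R2). The longer ones at 0.5 h were Cd5l, Neurl2 and Spata25, all lower. At 2 h they included Pf4, the platelet and macrophage chemokine (-1.01 and -0.92), whose signs differed between replicates at the other times. At 6 h they were Bcl3, Ptx3, Hcar2 and Denr, higher, and Ccdc61, lower. Of the 12 genes whose replicates disagreed most, 11 span fewer than 500 bases.

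Of the 23 gene lists, 162 of 240 genes were in the table and 116 were tested. Apart from Bcl3, Ptx3 and Hcar2, no listed gene was called at 0.5, 1, 2 or 6 h in the fit without the replicate term or in either fit with it. The lists are therefore described by the signs of their replicate differences and by medians, beside those of all tested genes, whose median differences averaged over the replicates were -0.13, 0.04, -0.16 and -0.02 at 0.5, 1, 2 and 6 h. In bulk RNA, fewer cells of a type and less RNA per cell cannot be told apart.

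With the replicates averaged, the tested macrophage markers had a lower median than all genes, at -0.45, -0.21, -0.31 and -0.19. This did not hold in each replicate. In R1 their medians were -0.28, -0.13, -0.37 and -0.59, beside -0.40, -0.16, -0.37 and -0.11 for all genes. In R2 they were -0.40, -0.22, -0.11 and 0.12, beside 0.13, 0.23, 0.05 and 0.07. The markers were thus clearly below all genes in R2 at 0.5, 1 and 2 h and in R1 at 6 h. Of 7, 5, 6, 5 and 1 were below wild type in both replicates at 0.5, 1, 2 and 6 h, beside 23.2%, 15.7%, 26.8% and 20.2% of all genes. Lyz2, which encodes macrophage lysozyme, differed by -0.28, -0.31, -0.37 and -1.76 in R1 and by -0.63, -0.48, -0.25 and 0.12 in R2. Fcgr1, the high-affinity IgG receptor, differed by -0.25, -0.01, -0.71 and -0.60 in R1 and by -0.40, -0.96, -0.05 and 0.21 in R2. Mertk, a receptor kinase for apoptotic cell uptake, was lower in all 8 differences, from -1.01 to -0.02 in R1 and from -0.30 to -0.04 in R2. Higher in both replicates were 1, 0, 2 and 1 of the 7, among them Cd14, the lipopolysaccharide co-receptor, at 0.5 h (0.45 in R1 and 0.16 in R2) and at 2 h (0.18 and 0.04), and Csf1r, the M-CSF receptor, at 2 h (0.22 and 0.06). The summed level of the 7 ranged from 26.1 to 114 RPKM in Bcl3-/- and from 37.5 to 133 RPKM in wild type.

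Chemokine genes had medians above those of all genes at 0.5, 1 and 6 h, at 0.21, 0.32 and 0.20, and of -0.22 at 2 h. Of 14 tested, 6, 4, 0 and 4 were higher in both replicates at 0.5, 1, 2 and 6 h, beside 7.76%, 7.30%, 5.15% and 17.0% of all genes. Lower in both were 1, 0, 3 and 0 of the 14, beside 23.2%, 15.7%, 26.8% and 20.2%. Ccl5, a T-cell and monocyte attractant, differed by 0.40, -0.04, -0.21 and -0.04 in R1 and by 0.59, 0.69, 0.18 and 0.48 in R2. Ccl22, a ligand of CCR4, differed by 0.22, -0.19, -0.57 and -0.05 in R1 and by 0.23, 1.62, 0.81 and 0.83 in R2. After 0.5 h the higher values were thus those of R2, the replicate in which most genes were high. Cytokine genes (9 tested) had medians of 0.01, 0.02, -0.05 and -0.01, with 3, 1, 1 and 4 higher in both replicates and 0, 2, 0 and 2 lower.

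Il10, the anti-inflammatory cytokine most often linked to Bcl3 in macrophages, was among the cytokines higher in both replicates at 6 h. It stood at 5.51 and 18.8 RPKM in Bcl3-/- and at 2.87 and 5.76 RPKM in wild type, so the groups overlapped. The log2 difference was 1.23 ± 0.58 (SE) and was not called (adjusted p in limma 1.00). At 0.5, 1 and 2 h its replicates had opposite signs. The 7 tested genes linked to Bcl3 in earlier work had 2, 1, 0 and 2 members higher in both replicates and 0, 1, 0 and 1 lower, with medians of 0.15, 0.25, -0.05 and -0.03. Of all tested genes, 7.76%, 7.30%, 5.15% and 17.0% were higher in both and 23.2%, 15.7%, 26.8% and 20.2% lower.

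Interferon-stimulated genes had medians below those of all genes at 0.5 and 2 h. Of 11 tested, 8, 2, 5 and 1 were lower in both replicates at 0.5, 1, 2 and 6 h, beside 23.2%, 15.7%, 26.8% and 20.2% of all genes. Higher in both were 0, 3, 0 and 0 of the 11, beside 7.76%, 7.30%, 5.15% and 17.0%. The medians were -0.36, 0.02, -0.48 and -0.08. Gbp5, an interferon-induced guanylate-binding protein, differed by -0.84, -0.20, -1.02 and -0.52 in R1 and by -0.34, -0.20, -0.01 and 0.22 in R2. Gbp2, of the same family, differed by -0.70, -0.30, -1.10 and -0.50 in R1 and by -0.41, -0.09, -0.00 and 0.39 in R2. At 2 h the list's difference was carried by R1, where the median of all genes was -0.37, and in R2 Gbp5 and Gbp2 were within 0.01 of wild type.

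The other lists of the response had no called gene apart from those named above. Of all tested genes, 7.76%, 7.30%, 5.15% and 17.0% were higher in both replicates at 0.5, 1, 2 and 6 h. Lower in both were 23.2%, 15.7%, 26.8% and 20.2%. The 14 immediate-early genes had medians of -0.12, -0.06, 0.02 and 0.03, with 2, 1, 5 and 4 higher in both replicates and 7, 5, 2 and 2 lower. Ier5, an early stress-response gene, was higher by 0.71, 0.67 and 0.22 in R1 and 0.41, 0.41 and 0.67 in R2 at 0.5, 2 and 6 h, and stood at -0.00 in R1 and 0.70 in R2 at 1 h. The 11 genes of TLR4 signalling had medians of -0.28, -0.08, -0.17 and -0.10, with 5, 4, 3 and 3 lower in both replicates and 1, 1, 1 and 0 higher. The 6 negative-feedback genes had medians of -0.15, -0.09, -0.07 and 0.03. From the list of NF-kB and IkB proteins, 5 were tested and had medians of -0.35, 0.00, -0.12 and 0.02, and Nfkb1, which encodes the p105 precursor of p50, differed by -1.14, -0.28, -0.86 and -0.43 in R1 and by -0.02, -0.25, 0.08 and 0.14 in R2. The 9 acute-phase and antimicrobial genes had medians of -0.02, -0.11, -0.21 and 0.01, and the 10 metabolic and lipid mediator genes of -0.01, 0.06, -0.08 and -0.06.

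Proliferation genes split entirely by replicate. All 10 tested had opposite signs in R1 and R2 at 0.5, 1 and 2 h, and at 6 h 1 was higher in both and 0 lower. Mki67, the cycling-cell antigen, differed by -0.87, -0.36, -0.82 and -0.38 in R1 and by 0.47, 0.73, 0.10 and 0.36 in R2. Top2a, the topoisomerase of dividing cells, differed by -1.06, -0.61, -0.71 and -0.22 in R1 and by 0.52, 0.93, 0.21 and 0.45 in R2. Their medians had the sign of the all-gene medians of their replicate, at -0.48, -0.31, -0.40 and -0.16 in R1 and 0.47, 0.72, 0.13 and 0.21 in R2.

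**Figure D4:**
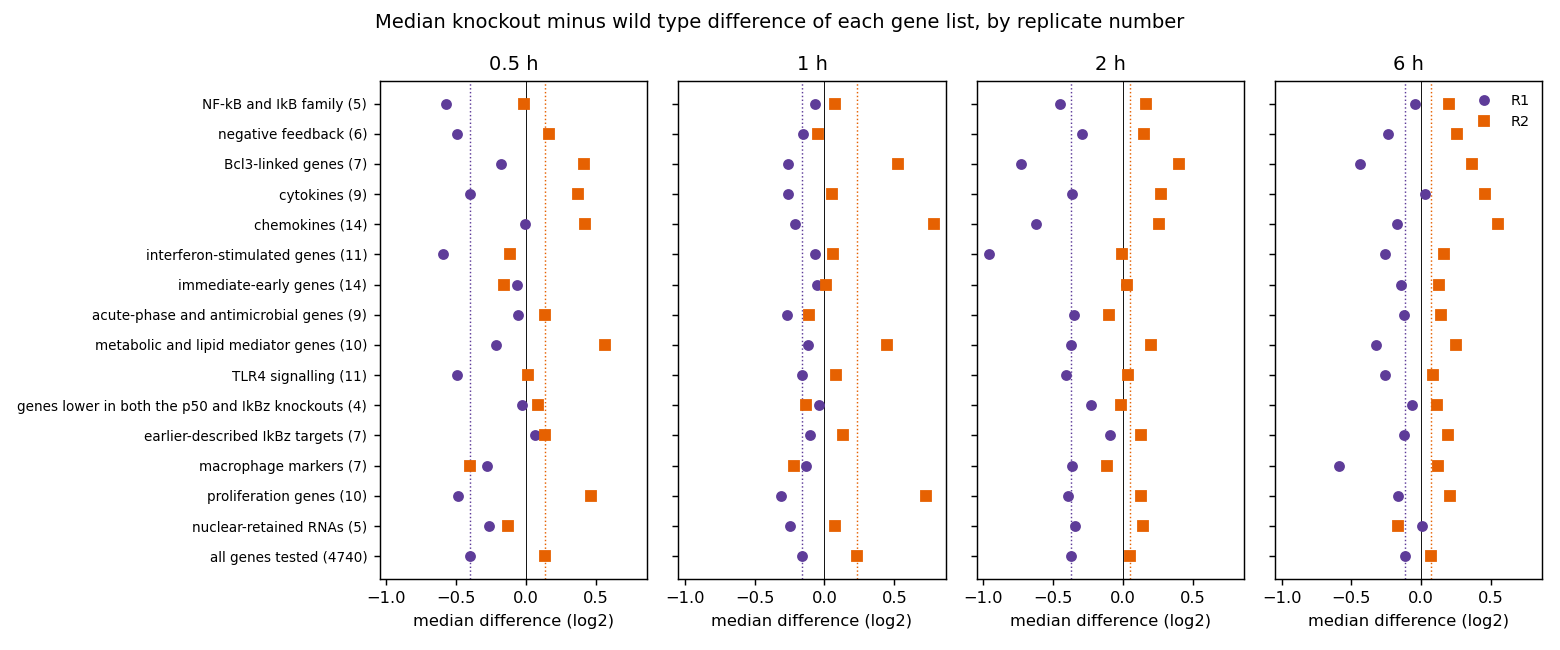
Median within-replicate difference (log2(RPKM + 0.5), Bcl3-/- minus wild type) of each gene list with at least 4 tested genes, at 0.5, 1, 2 and 6 h, with purple circles for R1 and orange squares for R2 and a dotted line at the median of all tested genes of each replicate. At 0.5 h macrophage markers lie below the all-gene median in R2 (-0.40 against 0.13). In R1 they lie above it (-0.28 against -0.40). Proliferation genes lie on opposite sides of 0 in R1 and R2.

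The lipid A response itself was present in the Bcl3-/- libraries. It was measured on 205 genes that reached at least 5 times their 0 h level in the wild-type libraries of the Nfkb1 and Nfkbiz comparisons, which share no library with the Bcl3 one. Of the 87 such genes at 0.5 h, 82 and 85 reached 5 times their 0 h level in wild-type R1 and R2, and 63 and 79 did in Bcl3-/- R1 and R2. Of the 88 at 1 h the counts were 79 and 86 in wild type and 70 and 79 in Bcl3-/-, of the 118 at 2 h 103 and 103 and 71 and 104, and of the 91 at 6 h 72 and 72 and 64 and 79. The count in Bcl3-/- R1 was below both wild-type replicates at every time, and that of Bcl3-/- R2 was above them at 2 and 6 h.

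The median log2 rise told the same difference between the replicates. It was 3.56 and 3.28 in wild type and 2.89 and 3.24 in Bcl3-/- at 0.5 h, 3.28 and 3.15 and 3.03 and 3.22 at 1 h, 3.16 and 3.13 and 2.55 and 3.09 at 2 h, and 3.14 and 3.07 and 2.89 and 3.28 at 6 h. At their own time, 9, 7, 5 and 16 of the 87, 88, 118 and 91 induced genes were above wild type in both replicates. Of all tested genes 7.76%, 7.30%, 5.15% and 17.0% were. Below in both were 23, 30, 49 and 13 induced genes, beside 23.2%, 15.7%, 26.8% and 20.2% of all genes. Induced genes 2-fold above or below in both numbered 0. At 6 h the induced genes furthest above wild type in both replicates were Il10, Il27 (0.86 in R1 and 0.57 in R2), a subunit of interleukin-27, and Adora2b (0.56 and 0.60), an adenosine receptor. At 0.5 h Mapkapk2, the kinase downstream of p38, was the furthest below (-1.16 and -0.76), and at 1 h Il1b was below in both (-0.29 and -0.35).

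The Nfkbiz knockout lacks IkBz, a nuclear IkB protein related to Bcl3 and likewise a partner of p50, and its effect at 6 h was set against that of Bcl3 in a joint limma fit of 40 libraries and 5074 genes. Each knockout had its own wild-type libraries. In that fit the Nfkbiz effect gave 126 genes lower (2.48%) and 73 higher (1.44%), and the Bcl3 effect 0 lower (0%) and 2 higher (0.0394%), Bcl3 and Ptx3 (adjusted p 0.0179 and 0.0216). The difference of the effects, Bcl3 minus Nfkbiz, passed the threshold for 33 genes below 0 (0.650%) and 54 above 0 (1.06%). With each library centred on its median the balance turned, to 95 below and 47 above 0. The 126 genes lower in the Nfkbiz knockout had a median Bcl3 effect of -0.06, and for 48 of them the difference passed. The 73 higher ones had a median Bcl3 effect of -0.03, and for 33 the difference passed. Both sets were chosen on the same Nfkbiz libraries that enter the difference. That choice favours passing, so the counts of 48 and 33 are a description.

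Lcn2 and Saa3, known IkBz-dependent genes, differed from wild type in Bcl3-/- by less than the spread of the replicates. Lcn2, the siderophore-binding protein lipocalin-2, stood at 5.17 and 21.6 RPKM in Bcl3-/- and 5.55 and 17.6 RPKM in its wild type, and at 0.0581 and 0.0666 RPKM in the Nfkbiz knockout and 12.8 and 15.1 RPKM in that wild type. The Bcl3 groups overlapped, the Nfkbiz groups did not, and the effects of 0.10 and -4.68 differed by 4.77 ± 0.57 (SE). Saa3, an acute-phase apolipoprotein, stood at 84.5 and 143 RPKM in Bcl3-/- and 92.2 and 130 RPKM in its wild type, and at 1.39 and 1.72 RPKM in the Nfkbiz knockout and 100 and 123 RPKM in that wild type. Saa3 had effects of 0.01 in Bcl3-/- and -5.77 in the Nfkbiz knockout, a difference of 5.78 ± 0.45. Cebpd, the acute-phase transcription factor C/EBP delta, had effects of 0.03 and -2.40, and Tnfsf4, the OX40 ligand, of 0.07 and 3.68.

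Ptx3 moved in opposite directions in the 2 knockouts. At 6 h it was 0.0762 and 0.378 RPKM in the Nfkbiz knockout against 0.617 and 1.61 RPKM in its wild type, an effect of -1.11, beside 1.10 in Bcl3-/-. The difference was 2.21 ± 0.28 (adjusted p in limma 1.48e-05). For Il10 no difference between the knockouts was detected (0.22 ± 0.66, adjusted p in limma 0.928).

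**Figure D5:**
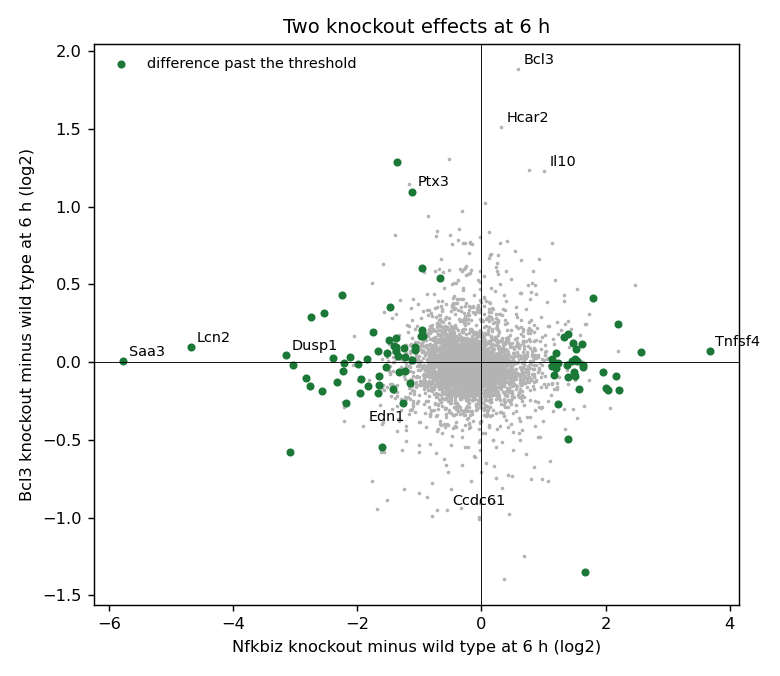
Effect of the Nfkbiz knockout (horizontal axis) and of Bcl3-/- (vertical axis) at 6 h, both log2(RPKM + 0.5) against their own wild type, for the 5074 genes of the joint fit, 1 point per gene, with green where the difference of the effects passed the threshold. The points spread along the Nfkbiz axis, from Saa3 at -5.77 to Tnfsf4 at 3.68, and most stay near 0 on the Bcl3 axis. Among the labelled genes Bcl3 stands there at 1.88, Hcar2 at 1.51, Il10 at 1.23, Ptx3 at 1.10 and Ccdc61 at -0.95. Some microRNA genes without a label lie as far out in either direction, such as Mir150 at 1.31 and Mir125b-2 at -1.40.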

How the data were processed

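Chromatin-associated RNA was sequenced from stranded TruSeq libraries, per the labels' protocols. The authors deposited 1 table of RPKM values per gene and library over the listed gene spans, per the file headers, and the submitters' processing notes name mm9, HISAT2 and SAMtools. Tool versions, the counting step and its use of strand are not given in the sources used here, so overlapping and antisense genes cannot be told apart. The lowest value in a library is that of 1 read, and 0 reads share it. Multiples of it were whole reads within 0.02 for 93.7% to 100% of low values, which gave the depths. Precision is limited by 2 libraries per group.

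Values were taken as log2(RPKM + 0.5), genes were kept at 1 RPKM in at least 2 of 20 libraries, and limma 3.58.1 (R 4.3.3) was fitted on all 20 libraries with a mean per genotype and time, an intensity trend and Benjamini-Hochberg adjustment. The Nfkbiz comparison used 40 libraries. The table's 36 columns of other experiments were not used here. Alternatives were other pseudocounts, filters and centring, a replicate term, leaving out each replicate, no trend, each time fitted alone, values averaged per replicate over the 4 times, and genes of at least 500 bases. The same-numbered knockout and wild-type libraries deviated together (correlations 0.76, 0.43, 0.27, 0.41 and 0.50 at 0, 0.5, 1, 2 and 6 h), so they were treated as paired. The pairing comes from the data, not the labels. The fit was tested on simulated data. Genes named are those called, the 6 leading in each direction per time by the smaller replicate difference, the 10 leading over the course, those with opposite replicates, and leading list members, while Veph1, Mark4, Plaur and the 0 h comparison were chosen after values were seen. The members and lists were chosen with earlier results of these data known.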

Additional observations from a re-analysis of the deposited data

Results flagged for a closer look

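The Bcl3 and Nfkbiz effects at 6 h differed, by the test of the difference itself in the joint limma fit, for 54 genes with the Bcl3 effect above the Nfkbiz effect and 33 genes with it below. With centred libraries the counts were 47 and 95, and with centring and the replicate block 79 and 143. Among the named genes, the difference was 4.77 for Lcn2, 5.78 for Saa3 and 3.18 for Dusp1, a phosphatase of MAP kinases (adjusted p in limma 0.0117), on the log2(RPKM + 0.5) scale.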

How the results depend on the processing

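At 6 h the count of higher genes, 0 without the replicate term, was 1 with a 3 RPKM filter, with centred libraries or without the limma trend, 2 with no filter or with only genes of 500 bases or more, 2 with the replicate block, 2 with the block and centring, and 3 with the block at each time. The block also gave 1 gene higher at 0 h, with or without centring, and changed no other count of genes called at 2-fold for Bcl3 against wild type. For the 4-time mean at 2-fold, a pseudocount of 0.1 gave 1 gene lower, centring 1 higher, and centring with the block 2 higher. Leaving out each replicate gave 0 to 423 genes lower and 0 to 31 higher at 0.5 h, 0 to 177 and 0 to 25 at 2 h, 0 to 1 higher at 6 h, and 0 to 27 lower and 0 to 12 higher for the 4-time mean. The counts of 423 and 177 came without Bcl3-/- R2, and without Bcl3-/- R1 the 0.5, 1 and 2 h counts were 0. Without either wild-type replicate the adjusted p of Bcl3 at 6 h was 1.00, and Ccdc61 no longer passed the filter. Bcl3 minus Nfkbiz (33 below 0, 54 above) became 19 and 35 with the 3 RPKM filter, 95 and 47 with centring, 73 and 118 with the replicate block, 81 and 136 with the block at each time, and 143 and 79 with centring and the block, and ranged from 18 to 86 and from 23 to 168 with a replicate left out. The 14 genes higher in all 8 differences became 6 with the 3 RPKM filter, 87 with centring, 25 without 0.5 h and 135 with both, and the 95 lower became 55 with the filter and 148 with centring and without 0.5 h. The cause of these changes was not tested. Centring, alone or with the block, and leaving out Bcl3-/- R2 (86 and 56) turned the balance of that comparison to more genes below 0. The differences of Bcl3, Ptx3, Hcar2, Ccdc61, Smg9 and Snora43 kept their sign under each alternative that gave a value. Fitting each time alone, or the 4-time mean on values averaged per replicate, gave 0 calls at 2-fold, as did the main fit without the replicate term. With 2 libraries a group, and with under 30 reads for Ptx3 before 2 h, smaller differences were not detectable.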
